A study of Mus musculus with 16 samples.

Results

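The 10 genes described here build and supply the MHC class I molecule: the heavy chains H2-K1 and H2-D1, the light chain B2m, the peptide transporter subunits Tap1 and Tap2, the loading chaperone Tapbp (tapasin), the immunoproteasome subunits Psmb8, Psmb9 and Psmb10, and the class I transactivator Nlrc5. They were matched by symbol, and each was found once among the 55487 genes of the count table. Counts were scaled to each sample's total, as CPM, and all 10 exceeded 1 CPM in at least 2 samples, the filter that left 12372 genes for testing. The lowest count of any of the 10 in a sample was 387 (Psmb9) and the highest was 76077 (H2-D1).

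Class I molecules show short peptides from the cell's own proteins to CD8+ T cells. Proteasomes cut the proteins, the transporter of Tap1 and Tap2 carries the peptides into the endoplasmic reticulum, and tapasin holds the empty class I molecule beside the transporter until a peptide fits. Interferons raise most of these genes through JAK kinases and STAT and IRF factors, NF-κB acts on several of their promoters, and NLRC5 binds the promoters of class I genes with the RFX, CREB and NF-Y factors.

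RNA was sequenced from bone marrow-derived macrophages (BMDMs) of wild-type Balb/c mice of 8 weeks. The groups differed in what was added to the cells, for 4 h by the study's methods. By the same methods, cells were serum starved for 2 h before CM, and ruxolitinib was already present in this pre-treatment. IKK-16 was added later, along with ruxolitinib and CM. DMEM (2 samples) held cells in medium with no tumor product, and DMEM + Rux (3 samples) the same with ruxolitinib, an inhibitor of the kinases JAK1 and JAK2. CM (3 samples) held cells given conditioned medium of 4T1, a Balb/c mammary tumor line. CM + Rux (3 samples) also received 0.5 µM ruxolitinib, and CM + Rux + IKK-16 (3 samples) received 0.8 µM IKK-16, an inhibitor of the IκB kinases that activate NF-κB, on top of it. A further group carries the label 2 h (CM + Rux 2 h, 2 samples), whose meaning the sources used here do not give, and neither do they give the dose of ruxolitinib in DMEM. The study's methods name triplicate samples and experiments repeated at least 3 times. They do not say whether the samples of a group came from separate mice or cultures. The p-values therefore measure the spread between these samples, which may be technical. Balb/c mice carry the H-2d haplotype and the reference genome the H-2b haplotype of C57BL/6, so that reads of the polymorphic H2-K1 and H2-D1 were aligned to other alleles of these genes. What this did to their counts was not tested.

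Of the 10 genes, 7 lie within the H2 complex on chromosome 17, between chr17:33915899 and 35267499 (GRCm38). In order along the chromosome these are Tapbp (chr17:33915899-33929292), H2-K1 (chr17:33996017-34000347), Psmb9 (chr17:34181987-34187764), Tap1 (chr17:34187553-34197225), Psmb8 (chr17:34197721-34201454), Tap2 (chr17:34203527-34216321) and H2-D1 (chr17:35262730-35267499). B2m lies on chromosome 2 (chr2:122147686-122153083), and Psmb10 (chr8:105935735-105938444) and Nlrc5 (chr8:94434356-94527272) lie on chromosome 8. The annotated Psmb9 and Tap1 overlap at their 5′ ends on opposite strands, and the counting used the strand.

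RefSeq promoter sequences (GRCm38.p6, 250 bases before to 50 after the start) were matched for 8 of the 10 genes, in 9 windows; Tap2 and Nlrc5 had none. The stretches shown are those of both heavy chains and B2m, whose layout is alike, of Psmb8, and of the 225 bases between the divergent starts of Psmb9 and Tap1. Capitals mark, on either strand, the interferon-type element (GAAA and GAAA with any 2 bases between), the STAT-type element TTCNNNGAA, the NF-κB consensus, the X2-type letters TGACG and the Y-box letters ATTGG.
H2-K1 (chr17:34000348-34000597, minus strand): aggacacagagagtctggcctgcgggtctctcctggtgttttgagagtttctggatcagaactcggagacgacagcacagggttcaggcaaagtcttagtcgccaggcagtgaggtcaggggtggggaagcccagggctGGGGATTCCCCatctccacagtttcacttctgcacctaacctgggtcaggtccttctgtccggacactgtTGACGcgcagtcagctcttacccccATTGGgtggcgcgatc
H2-D1 (chr17:35262844-35263093, plus strand): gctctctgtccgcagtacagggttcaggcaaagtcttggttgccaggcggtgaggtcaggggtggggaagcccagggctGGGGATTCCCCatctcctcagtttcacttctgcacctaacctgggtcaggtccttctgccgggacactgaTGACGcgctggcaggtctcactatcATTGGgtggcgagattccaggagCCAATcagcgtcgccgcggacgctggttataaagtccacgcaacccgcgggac
B2m (chr2:122147437-122147686, plus strand): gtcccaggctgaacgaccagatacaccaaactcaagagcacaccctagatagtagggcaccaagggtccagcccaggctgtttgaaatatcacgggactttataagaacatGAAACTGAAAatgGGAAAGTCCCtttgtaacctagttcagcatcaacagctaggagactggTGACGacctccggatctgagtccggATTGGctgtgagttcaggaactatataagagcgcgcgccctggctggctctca
Psmb8 (chr17:34197945-34198194, plus strand): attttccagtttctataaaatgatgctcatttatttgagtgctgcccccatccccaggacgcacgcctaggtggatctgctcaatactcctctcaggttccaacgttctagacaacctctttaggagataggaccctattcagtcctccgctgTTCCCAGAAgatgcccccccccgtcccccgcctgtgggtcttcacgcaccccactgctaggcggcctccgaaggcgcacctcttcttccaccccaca
Psmb9 and Tap1 (chr17:34187331-34187555, plus strand, Psmb9 start at the left end and Tap1 start at the right): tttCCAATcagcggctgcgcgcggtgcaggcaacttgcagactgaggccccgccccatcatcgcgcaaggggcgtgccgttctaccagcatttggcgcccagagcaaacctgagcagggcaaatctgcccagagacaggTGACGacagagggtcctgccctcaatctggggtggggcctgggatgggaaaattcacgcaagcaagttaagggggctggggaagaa

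The NF-κB consensus was present in the windows of H2-K1, H2-D1 and B2m, and in 8.46% of the 32851 RefSeq promoter windows of the same length. The interferon-type element, in exactly the letters given above, was found at B2m alone among these windows (3.44% of all windows) and TTCNNNGAA at Psmb8 alone (8.3%). Looser forms of these elements were not searched, so that other windows, those of the heavy chains among them, may hold such forms unmarked. TGACG was found at 5 of the 8 genes (20.8% of all windows) and ATTGG at 6 (37.4%); a single TGACG lies between the starts of Psmb9 and Tap1. At H2-K1, H2-D1 and B2m, TGACG was followed on the same strand by ATTGG. The first base of ATTGG lay exactly 25 bases after the first base of TGACG, a spacing noted after the sequences were seen. That pair at that spacing was held by 31 windows (0.0944%) in all. In H2-K1 and H2-D1 the NF-κB match overlaps a second match of the same consensus shifted by 1 base. A match describes letters in the window and was not tested as a binding site.

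The samples held 18449388 to 46215853 counts each. Macrophage markers summed to 41504 to 58739 CPM, with 12 of 12 tested, and epithelial markers, which would mark 4T1 cells, had 0 of 10 above the filter and summed to 0.0409 to 0.118 CPM in DMEM and 1.10 to 1.61 in CM. B cell markers summed to 80.2 to 144 CPM in DMEM and to 10.6 to 14.2 in CM, with 2 of 6 tested and both called lower. Neutrophil markers summed to 2.42 to 3.60 CPM in DMEM and 9.33 to 10.07 in CM, with 2 of 9 tested and both called higher, and dendritic cell markers to 23.6 to 31.6 and 34.0 to 42.1, with 3 of 9 tested and 1 called higher. Of the 12 macrophage markers, 2 were called higher in CM and 1 lower. Over all genes tested, 20.9% were called higher in CM and 24.1% lower. The part of these lists in the results was not tested. In bulk RNA, fewer cells of a type and less RNA per cell cannot be told apart. All levels are CPM scaled by relative log expression (normalized CPM). Compared with total counts alone, this scaling moved the median log2 fold change by 0.31 for CM over DMEM and by 0.30 for CM + Rux over DMEM + Rux. For both inhibitors over CM it moved the median by -0.11.

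Per kilobase of exon, B2m and the heavy chains were the highest of the genes and Nlrc5 the lowest. The 6 group means of B2m lay between 1652 and 2064 normalized CPM per kb, those of H2-D1 between 602 and 818, of H2-K1 between 160 and 212, and of Tapbp between 107 and 157. None of these ranges overlapped. Psmb10 (30.3 to 53.4), Psmb8 (19.1 to 36.6) and Tap2 (14.9 to 38.6) followed with overlapping ranges, and then Tap1 (5.48 to 12.98), Psmb9 (4.81 to 7.41) and Nlrc5 (3.01 to 5.44), also overlapping from one to the next. Together the 10 genes took 0.432% to 0.526% of all counts, most of it from the heavy chains and B2m. The widest change over the group means was that of Tap2 (log2 range 1.37), followed by Tap1 (1.25), and the narrowest that of B2m (0.32).

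**Figure D1:**
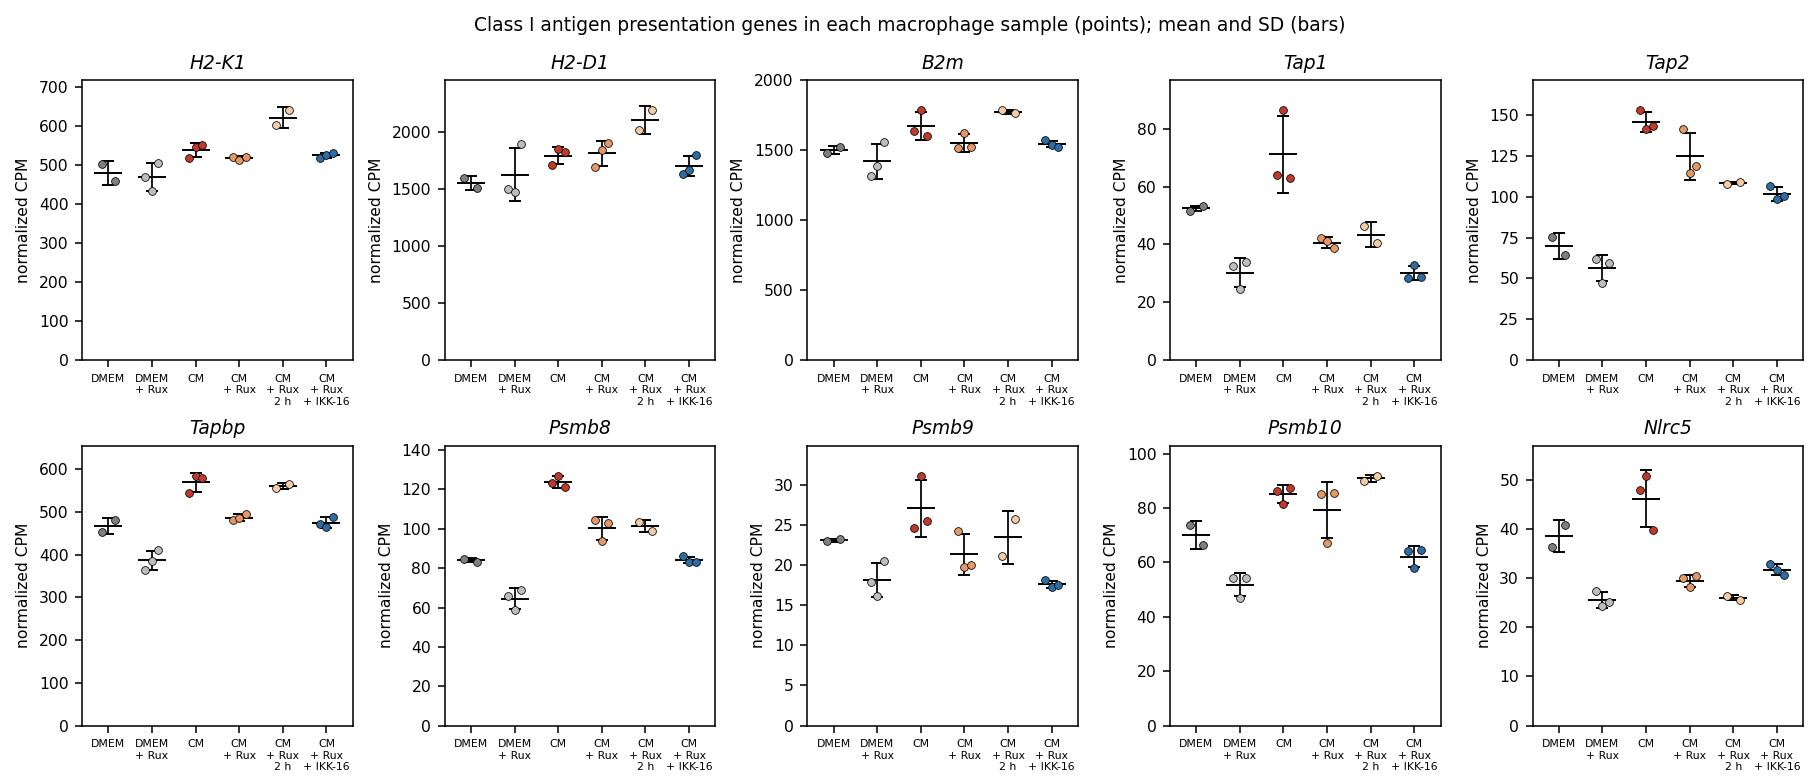
Normalized CPM (vertical axes, from 0) of the 10 genes in every sample (points) of the 6 groups, with mean and SD as bars. Tap1 and Nlrc5 are lower with Rux in both media, Tap2 and Psmb8 are higher in CM, and H2-K1, H2-D1 and B2m vary little.

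Comparisons used edgeR's quasi-likelihood test on 1 model of all 16 samples, with Benjamini-Hochberg adjustment over the 12372 genes. A gene was called at an adjusted p under 0.05 with a log2 fold change beyond 0.5. This model did not pair same-numbered samples. Values from a paired fit, with the replicate number as a block, are named as such. Several comparisons share samples, such as those that use CM, and are not independent of each other. In CM against DMEM, 2 of the 10 genes were called higher (Tap2 and Psmb8), beside 20.9% of all genes tested, and 6 were higher at the adjusted p alone, beside 31.4%. Of these 6, Tap2 and Psmb8 passed the adjusted p in all 13 alternative settings (other scalings, filters, tests or samples left out), while Tapbp missed it in 1, Tap1 and Psmb10 in 4 each and Nlrc5 in 6. The median log2 fold change of the 10 was 0.27, against 0.00 over all genes tested. All 10 values were above 0, but 7 of them (H2-K1, H2-D1, B2m, Tapbp, Psmb9, Psmb10 and Nlrc5) fell below 0 when total counts alone were used for scaling.

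With ruxolitinib in both groups, CM + Rux against DMEM + Rux, 3 genes were called higher (Tap2, Psmb8 and Psmb10), beside 22.3% of all genes. At the adjusted p alone there were 5, beside 33.4%. The dose in DMEM is not given, and equal inhibition of JAK1/2 in both groups was not tested. A difference of dose cannot be told apart from one of medium, here or in the interaction test below. With the replicate number as a block the 5 became 8, with H2-K1, H2-D1 and Nlrc5 added. The 33.4% is from the fit without the block, and the share of all genes with it is not given here. All 10 values were again above 0, and 5 of them (H2-K1, H2-D1, B2m, Psmb9 and Nlrc5) fell below 0 under total counts alone.

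Ruxolitinib lowered Tap1 and Nlrc5 in both media. In CM + Rux against CM these 2 genes were called lower, beside 2.13% of all genes, and Psmb8 joined them at the adjusted p alone, making 3 beside 2.74%. In DMEM + Rux against DMEM the same 2 genes were called lower, beside 0.97%, and the same 3 passed at the adjusted p alone, beside 1.03%. Psmb8 missed the adjusted p in 4 of 14 alternatives in CM and in 6 of 13 in DMEM. The replicate block raised both counts of 3 to 5, adding Tap2 and Tapbp in CM and Tapbp and Psmb10 in DMEM. The shares above are from the fit without the block. Whether the block raised the share of all genes as well is not given here. The median log2 fold change of the 10 genes was -0.23 in CM and -0.33 in DMEM, against 0.01 over all genes tested in each. No difference between the effects of ruxolitinib in the media passed the interaction test, with 0 of the 10 called beside 0.412% of all genes. DESeq2, at both thresholds of a call, also called 0 of the 10. At an unadjusted p under 0.05, 1 of the 10 passed the interaction test in edgeR. The share of all genes at that unadjusted threshold is not given here, so the count cannot be set against it. At the adjusted p alone the interaction count was also 0, and 1 (Psmb10) with the replicate block, for which no share of all genes is given. The interaction of Psmb10 was 0.34 (95% interval 0.04 to 0.64, edgeR adjusted p = 0.45), and the other 9 values lay between -0.05 and 0.09.

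Adding IKK-16 to CM + Rux called 0 of the 10 genes in either direction, beside 7.74% of all genes. DESeq2, at the same thresholds of a call, also called 0. At an unadjusted p under 0.05, 5 of the 10 passed in edgeR. With no share of all genes given at that unadjusted threshold, the 5 cannot be read as a result about these genes. Tap1, Psmb8 and Psmb10 were lower at the adjusted p alone, 3 beside 7.65%. Tap2 joined them with the replicate block, making 4, with no share of all genes given for the block. Of the 14 alternatives, Tap1 and Psmb10 missed the adjusted p in 6 each and Psmb8 in 7. Against CM, both inhibitors together left 5 genes called lower (Tap1, Tap2, Psmb8, Psmb9 and Nlrc5), beside 6.13%, and 7 lower at the adjusted p alone, beside 12.1%. The median log2 fold change there was -0.49, against 0.00 over all genes tested. The CM + Rux 2 h samples differed from CM + Rux in 0 called genes of the 10, beside 23.3% of all genes called in either direction and 12.6% called higher. H2-K1 and Tapbp, 2 of the 10, were higher at the adjusted p alone, beside 18.2%, and missed it in 3 and 9 of 13 alternatives. The replicate block added Psmb10, again without a share of all genes for the block. DESeq2, at both thresholds of a call, called 0 of the 10 in the 2 h samples, as edgeR did. At an unadjusted p under 0.05, 3 of the 10 passed there in edgeR. For this count, too, no share of all genes at that threshold is given.

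**Figure D2:**
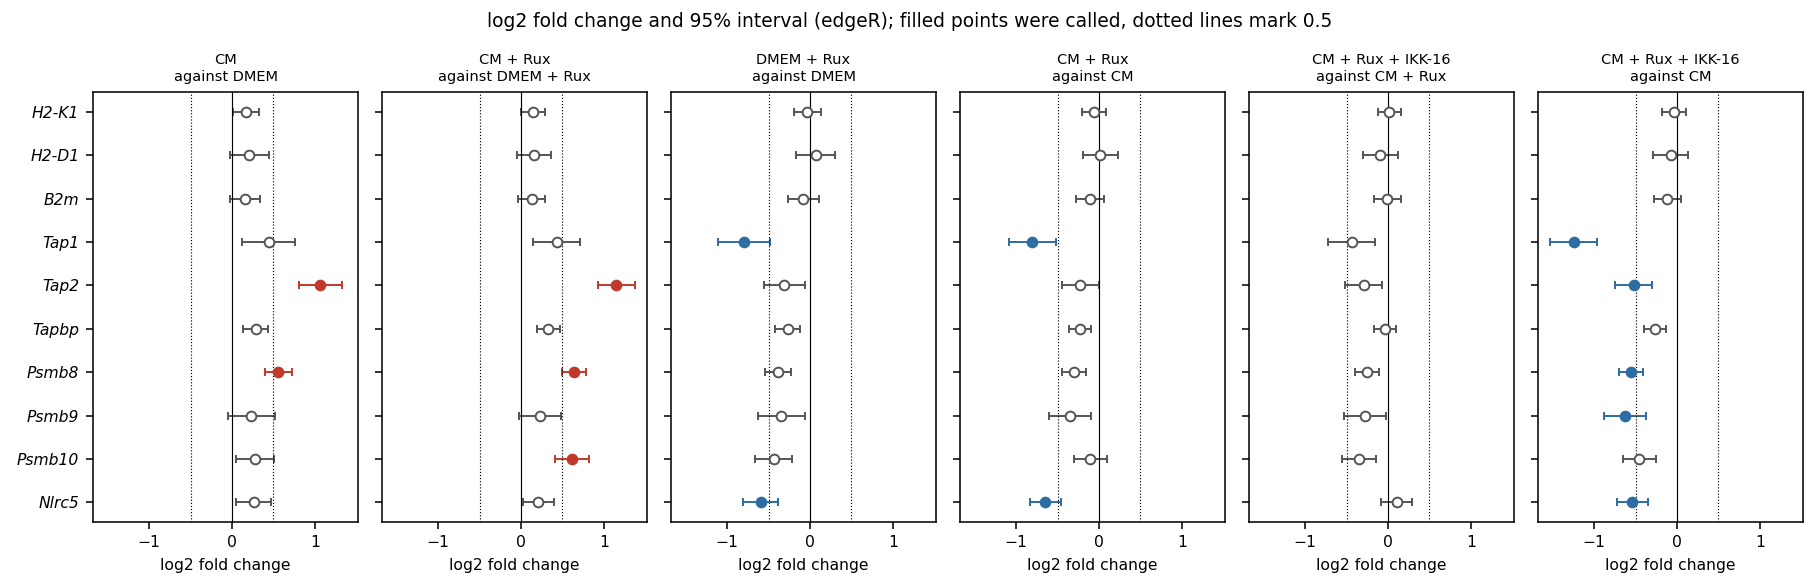
log2 fold change of the 10 genes (horizontal axes, with 95% intervals from edgeR) in 6 comparisons; filled points passed both thresholds, red higher and blue lower. Tap2 and Psmb8 were called higher with CM in both panels at the left, Tap1 and Nlrc5 lower with Rux in both panels in the middle, and 5 genes lower with both inhibitors at the right.

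The heavy chains and B2m form the class I molecule itself, and none of the 3 was called in any comparison. H2-K1 was at 502 and 459 normalized CPM in DMEM, 519, 548 and 552 in CM, 521, 513 and 522 in CM + Rux, and 518, 526 and 532 in CM + Rux + IKK-16. In DMEM + Rux it was at 470, 433 and 505. Every sample with CM was above every sample without it. The log2 fold change of H2-K1 in CM against DMEM was 0.17 ± 0.08 (SE, edgeR adjusted p = 0.067), and -0.14 under total counts alone. The 2 h samples, at 602 and 641, were above every other sample, by 0.26 ± 0.07 over CM + Rux (edgeR adjusted p = 0.014, and 0.12 without 2 h replicate 3).

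H2-D1, the second classical heavy chain, was at 1596 and 1508 normalized CPM in DMEM, at 1709, 1853 and 1825 in CM, and at 1694, 1843 and 1907 in CM + Rux. DMEM + Rux ranged from 1480 to 1898, CM + Rux + IKK-16 from 1638 to 1799, and the 2 h samples were at 2024 and 2193. B2m, the light chain shared by all class I molecules, was at 1480 and 1524 in DMEM, at 1640, 1786 and 1600 in CM, and at 1516, 1627 and 1521 in CM + Rux. For these genes every CM sample was above both DMEM samples, but the differences of 0.21 ± 0.11 (H2-D1, edgeR adjusted p = 0.11) and 0.16 ± 0.09 (B2m, edgeR adjusted p = 0.13) did not pass, and each turned below 0 under total counts alone. With ruxolitinib or IKK-16 the log2 fold changes of the 3 genes lay between -0.12 and 0.07, with no call. For CM + Rux against CM the 95% intervals were -0.20 to 0.09 for H2-K1, -0.19 to 0.22 for H2-D1 and -0.27 to 0.06 for B2m. The ratio of H2-K1 and H2-D1 to B2m, in counts per kb within a sample, had group means of 0.438 to 0.499.

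Of the transporter subunits, Tap2 was called with tumor medium and Tap1 with ruxolitinib. Tap2 was at 75.3 and 64.1 normalized CPM in DMEM and at 153, 142 and 143 in CM, a rise of 2.09-fold (log2 fold change 1.06 ± 0.12, edgeR adjusted p = 4.4e-06). Tap1, its partner in the same heterodimer, was at 51.7 and 53.1 in DMEM and at 63.87, 86.34 and 63.05 in CM. Tap1 was higher in every CM sample, by 0.44 ± 0.15 (edgeR adjusted p = 0.019), which is under the fold threshold. Without CM replicate 2 it was 0.28 (adjusted p = 0.088), and without CM replicate 1 or 3 it was 0.51 or 0.52 and called. Under total counts alone it was 0.12 (adjusted p = 0.42), and without DMEM replicate 1 or 2 the adjusted p was 0.087 or 0.067. The Tap2 rise was called in 13 of 13 alternatives, with values of 0.75 to 1.18.

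In CM + Rux, Tap1 fell to 42.1, 41.3 and 38.6 normalized CPM, below every CM and DMEM sample, with a log2 fold change of -0.81 ± 0.13 (edgeR adjusted p = 0.0025), which held in all 14 alternatives (-0.89 to -0.64). In DMEM + Rux it was at 32.6, 24.5 and 33.8, a change of -0.79 ± 0.15 (edgeR adjusted p = 0.011) that rested on the pair of DMEM samples, with an adjusted p of 0.081 without replicate 1 and 0.084 without replicate 2 of DMEM, and of 0.08 in a fit of those groups alone. Tap2 was at 141, 114 and 119 in CM + Rux (-0.22 ± 0.10, edgeR adjusted p = 0.32, and 0.037 with the replicate block) and at 62.1, 47.0 and 59.6 in DMEM + Rux (-0.31 ± 0.12, edgeR adjusted p = 0.68). With ruxolitinib in both media, Tap2 still rose in tumor medium, by 1.15 ± 0.11 (edgeR adjusted p = 4.1e-07). Tap1 differed there by 0.43 ± 0.13 (edgeR adjusted p = 0.011), with 0.52, a call, without DMEM + Rux replicate 3. It was 0.29 (adjusted p = 0.062) without DMEM + Rux replicate 2 and 0.13 (adjusted p = 0.35) under total counts alone.

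In CM + Rux + IKK-16, Tap1 was at 28.5, 32.8 and 28.7 normalized CPM and Tap2 at 106, 98.6 and 100. Both genes were below every CM + Rux sample. For Tap1 the difference from CM + Rux was -0.44 ± 0.13 (edgeR adjusted p = 0.04), and -0.51, past the fold threshold, without IKK-16 replicate 2. Without any other single replicate of these groups, and under total counts alone, its adjusted p was 0.06 to 0.13. For Tap2 the difference was -0.29 ± 0.10 (edgeR adjusted p = 0.074, and 0.0055 with the replicate block). Against CM, Tap1 fell by 1.25 on the log2 scale (SE 0.13, edgeR adjusted p = 3e-05), to 0.421 of its level. Tap2 against CM was at -0.52 ± 0.10 (edgeR adjusted p = 0.0029), close to the fold threshold: it was -0.49 without CM replicate 1, -0.50 without IKK-16 replicate 2 and -0.41 under total counts alone. As a description, the ratio of Tap1 to Tap2 within a sample, which needs no scaling, had means of 0.523 ± 0.069 in DMEM (SD, n = 2), 0.371 ± 0.018 in DMEM + Rux (n = 3), 0.338 ± 0.072 in CM (n = 3), 0.226 ± 0.022 in CM + Rux (n = 3) and 0.204 ± 0.023 in CM + Rux + IKK-16 (n = 3).

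Tapbp, which bridges the transporter and the empty class I molecule, was at 454 and 481 normalized CPM in DMEM and at 544, 585 and 581 in CM. In CM + Rux it was at 480, 486 and 495, below every CM sample, and in DMEM + Rux at 366, 385 and 411, below both DMEM samples. It was higher in CM by 0.29 ± 0.07 (edgeR adjusted p = 0.0027), a direction that total counts alone turned to -0.02. The differences with Rux were -0.23 ± 0.06 in CM (edgeR adjusted p = 0.055) and -0.27 ± 0.07 in DMEM (edgeR adjusted p = 0.12), and with the replicate block their adjusted p-values were 0.0064 and 0.0094. IKK-16 left it at 464 to 489. Tapbpl and Erap1, a second peptide editor and the peptidase that trims peptides in the endoplasmic reticulum, were called in no comparison, with 11.93 to 24.03 and 62.5 to 82.1 normalized CPM over all samples.

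Psmb8, Psmb9 and Psmb10 replace the catalytic subunits Psmb5, Psmb6 and Psmb7 when immunoproteasomes are assembled. Psmb8 was at 84.6 and 83.2 normalized CPM in DMEM and at 123, 127 and 121 in CM. This was a rise of 0.56 ± 0.07 (edgeR adjusted p = 2e-05), or 0.25 and no call under total counts alone. With ruxolitinib, Psmb8 was at 66.0, 58.6 and 68.9 in DMEM and at 104, 93.7 and 103 in CM. It again rose with tumor medium, by 0.64 ± 0.07 (edgeR adjusted p = 1.3e-06), or 0.34 and no call under total counts alone. With Rux it differed by -0.30 ± 0.07 in CM and -0.38 ± 0.07 in DMEM (edgeR adjusted p = 0.016 in each), without a call by size. With IKK-16 it was at 86.1, 83.0 and 83.4, all below the CM + Rux samples (-0.25 ± 0.07, edgeR adjusted p = 0.019, and 0.051 to 0.17 in the 7 alternatives that missed it). Against CM, both inhibitors gave -0.56 ± 0.07 (edgeR adjusted p = 6.4e-05), and -0.45 under total counts alone.

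Psmb9, whose start lies beside that of Tap1, was the lowest of the immunoproteasome subunits. It was at 22.99 and 23.21 normalized CPM in DMEM, at 24.7, 31.2 and 25.5 in CM, at 24.28, 19.74 and 20.001 in CM + Rux and at 18.1, 17.2 and 17.5 in CM + Rux + IKK-16. The levels stepped down from CM to CM + Rux to both inhibitors with no overlap between neighbouring groups, but neither step passed (-0.35 ± 0.12 and -0.28 ± 0.12, edgeR adjusted p = 0.13 for each). Over both steps, against CM, it fell by 0.63 on the log2 scale (SE 0.12, edgeR adjusted p = 0.0019), a call in 14 of 14 alternatives. In CM against DMEM it differed by 0.23 ± 0.13 (edgeR adjusted p = 0.14), and by -0.08 under total counts alone.

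Psmb10 was at 73.8 and 66.4 normalized CPM in DMEM, at 54.2, 46.8 and 54.2 in DMEM + Rux, and at 86.35, 81.41 and 87.49 in CM. CM + Rux held 85.0, 67.3 and 85.5, overlapping CM, and CM + Rux + IKK-16 held 64.2, 57.8 and 64.4, below every CM + Rux sample. The difference between those last groups was -0.35 ± 0.09 (edgeR adjusted p = 0.021, and 0.051 to 0.14 in the 6 alternatives that missed it). In DMEM, ruxolitinib gave -0.44 ± 0.10 (edgeR adjusted p = 0.072, and 0.0012 with the replicate block), and in CM the value was -0.10 with an interval of -0.30 to 0.10. With both groups on ruxolitinib, tumor medium raised Psmb10 by 0.62 ± 0.09 (edgeR adjusted p = 4.9e-05), and by 0.32, without a call, under total counts alone.

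The constitutive subunits that they replace rose with tumor medium. Psmb6 went from 152 and 131 normalized CPM in DMEM to 316, 324 and 334 in CM (1.20 ± 0.07, edgeR adjusted p = 1.8e-08), Psmb5 by 0.84 ± 0.11 (edgeR adjusted p = 1.3e-05, and 0.53 under total counts alone) and Psmb7 by 0.52 ± 0.07 (edgeR adjusted p = 1.5e-05). The Psmb7 call was lost without CM replicate 2 (0.50) and under total counts alone (0.21). None of the 3 was called with ruxolitinib or with IKK-16. Of the 14 constitutive 20S subunits, 7 were called higher in CM, beside 20.9% of all genes, and 0 lower, with a median log2 fold change of 0.48. The scaling moved the median over all genes by 0.31 from total counts alone in this comparison. The count and median of these subunits under total counts alone are not given here. With Rux, 0 of the subunits were called in either medium. Psma6, an outer-ring subunit, showed the largest rise, from 82.0 and 75.2 to 319, 385 and 316 (2.11 ± 0.15, edgeR adjusted p = 6.4e-08), and was the 1 subunit called lower with IKK-16, beside 3.66% of all genes (-0.79 ± 0.12, edgeR adjusted p = 0.0011).

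Within a sample, the ratio of an inducible subunit to the one it replaces needs no scaling between libraries. Psmb9 to Psmb6 was 0.0772 and 0.0906 in DMEM and 0.0398, 0.0491 and 0.0390 in CM, 0.507 of the DMEM value. Psmb8 to Psmb5 was 0.813 and 0.934 in DMEM, 0.724, 0.736 and 0.684 in CM and 0.539, 0.483 and 0.561 in CM + Rux. Psmb10 to Psmb7 was 2.39 and 2.15 in DMEM and 2.03, 1.77 and 1.97 in CM. All 3 ratios were lower in every CM sample than in both DMEM samples, and Psmb8 to Psmb5 and Psmb9 to Psmb6 were lower again in every CM + Rux sample. The two-sided exact permutation test gave p = 0.1 for each of these differences, the smallest it can reach with 3 samples against 2 or 3, and an adjusted p of 0.2 over the 12 tests. IKK-16 changed none of the ratios beyond the spread (exact permutation p = 0.6 or 0.8), and in DMEM with Rux the p-values were 0.1 to 0.3.

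**Figure D3:**
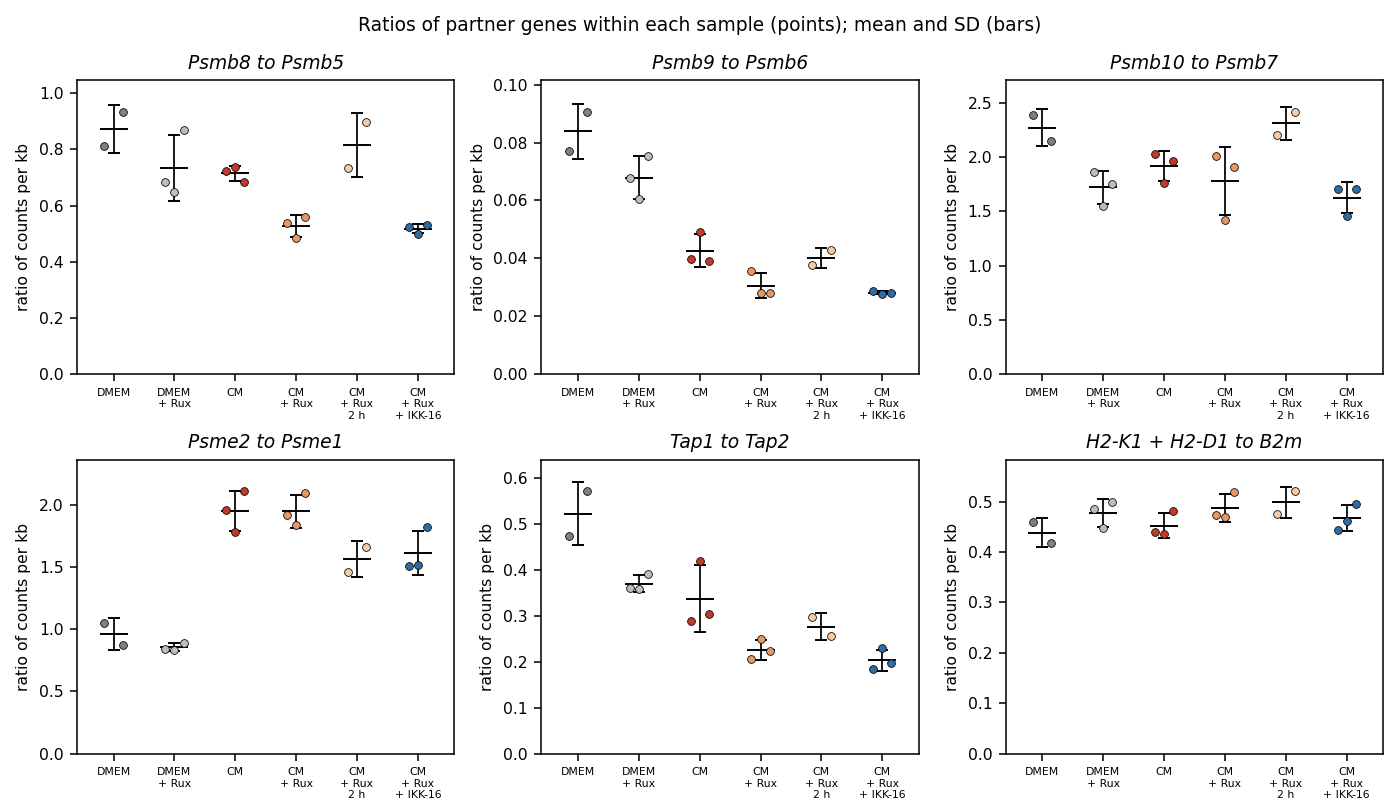
Ratios of counts per kb within each sample (points, vertical axes from 0), with group mean and SD as bars. The inducible to constitutive subunit ratios and Tap1 to Tap2 are lower in CM than in DMEM, Psme2 to Psme1 is higher, and the heavy chain to B2m ratio stays between 0.418 and 0.521.

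Psme1 and Psme2 form the PA28 activator, which binds the proteasome and favours the release of antigenic peptides. Psme2 was at 71.0 and 60.3 normalized CPM in DMEM and at 163, 171 and 178 in CM (1.38 ± 0.09, edgeR adjusted p = 3.8e-08), while Psme1 went from 84.7 and 86.8 to 104, 120 and 105 (0.36 ± 0.07, edgeR adjusted p = 4.9e-04, under the fold threshold, and 0.05 under total counts alone). Psme2 kept this level in CM + Rux (154, 150 and 167) and fell with IKK-16 to 98.1, 103 and 113 (-0.58 ± 0.08, edgeR adjusted p = 4.1e-04). In DMEM, ruxolitinib gave Psme2 a change of -0.47 ± 0.09 (edgeR adjusted p = 0.013), and -0.51, a call, with the replicate block or without DMEM + Rux replicate 3, and -0.58 without DMEM replicate 2. It was -0.35 (adjusted p = 0.32) without DMEM replicate 1, and its adjusted p was 0.15 in a fit of those groups alone and 0.064 and 0.06 without DMEM + Rux replicate 1 and 2. Of the 10 activator and assembly genes, 2 were called higher in CM (Psme2 and Psme3), beside 20.9% of all genes, and 2 lower, beside 24.1%, the assembly chaperones Psmg2 and Psmg4 (Psmg4 -0.68 ± 0.17, edgeR adjusted p = 0.0033).

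Nlrc5, the transactivator of class I genes, followed ruxolitinib in both media. It was at 36.4 and 40.8 normalized CPM in DMEM and fell to 27.3, 24.3 and 25.1 in DMEM + Rux. It was at 48.0, 50.9 and 39.8 in CM and fell to 30.0, 28.1 and 30.4 in CM + Rux. The falls were -0.65 ± 0.09 in CM (edgeR adjusted p = 6.3e-04, called in 14 of 14 alternatives) and -0.59 ± 0.10 in DMEM (edgeR adjusted p = 0.0043). The DMEM call was lost without DMEM replicate 2 (adjusted p = 0.076) and in a fit of those groups alone (adjusted p = 0.052). Tumor medium itself gave 0.26 ± 0.10 (edgeR adjusted p = 0.032) with overlapping groups. That value was -0.05 under total counts alone, and its adjusted p was 0.081, 0.13 and 0.24 without CM replicate 1, CM replicate 2 and DMEM replicate 1. With IKK-16 the samples were at 32.9, 31.7 and 30.7, each above the CM + Rux samples, by 0.11 ± 0.09 (edgeR adjusted p = 0.46). Against CM, both inhibitors left Nlrc5 at -0.54 ± 0.09 (edgeR adjusted p = 6.4e-04), and at -0.46, under the fold threshold, without CM replicate 2, or -0.43 under total counts alone.

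Among 16 regulators of class I transcription, 4 were called lower with Rux in CM (among them Irf9, Irf8 and Stat2), beside 2.13% of all genes, and 3 in DMEM (among them Irf9 and Stat2), beside 0.97%, with 0 called higher in either. Irf9, the DNA-binding part of the interferon-activated ISGF3 complex, went from 59.8, 75.3 and 68.1 normalized CPM in CM to 21.9, 27.4 and 24.8 in CM + Rux (-1.46 ± 0.13, edgeR adjusted p = 4.1e-05) and by -1.84 ± 0.14 in DMEM (edgeR adjusted p = 7.6e-06). Irf1, which binds interferon-type elements, was at 41.2, 52.4 and 57.1 in CM and at 65.0, 74.6 and 72.3 in CM + Rux (0.49 ± 0.22, edgeR adjusted p = 0.3). With IKK-16 it was at 38.5, 44.5 and 51.3, a difference of -0.66 ± 0.22 (edgeR adjusted p = 0.06, and 0.0091 with the replicate block). In CM against DMEM, Irf1 was lower (-0.70 ± 0.24, edgeR adjusted p = 0.022), a call lost without CM replicate 1 (adjusted p = 0.078) or DMEM replicate 1 (adjusted p = 0.19).

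Tumor medium called 5 of the 16 regulators higher, beside 20.9% of all genes, and 2 lower, beside 24.1%. Nfkb1, an NF-κB subunit, showed the largest rise, from 294 and 226 normalized CPM to 1388, 1405 and 1200 (2.36 ± 0.14, edgeR adjusted p = 1.2e-08). Ciita, the class II relative of Nlrc5, had the largest fall (-0.89 ± 0.32, edgeR adjusted p = 0.027). This was -0.22 and no call without DMEM replicate 2, and the adjusted p was 0.086 without CM replicate 1 and 0.057 in a fit of those groups alone. Nfyb, part of the NF-Y factor, was the regulator called lower with IKK-16, beside 3.66% of all genes (-0.66 ± 0.11, edgeR adjusted p = 0.002). Rfx5, an RFX subunit, was called in no comparison and ranged from 20.5 to 30.7 over all samples.

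Of 11 peptide loading and editing genes, 3 were called higher in CM, beside 20.9% of all genes, led by the chaperone Hspa5 (0.96 ± 0.14, edgeR adjusted p = 3.7e-05), and 0 were called with Rux or IKK-16. Of 9 cytosolic peptidases, 1 was called higher in CM, beside the same 20.9%, Npepps (0.82 ± 0.09, edgeR adjusted p = 4.3e-06, and 0.51 under total counts alone), and 0 with either inhibitor. Median log2 fold changes in CM + Rux against CM were -0.03 for the loading genes, -0.03 for the peptidases and 0.04 for the constitutive subunits, against -0.23 for the 10 genes described here and 0.01 for all genes tested. No test compared the lists.

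Of the 17 other class I heavy chains, 14 were tested, and in CM 3 were called higher, beside 20.9% of all genes, and 5 lower, beside 24.1%. H2-T24, a non-classical heavy chain, went from 76.0 and 116 normalized CPM in DMEM to 22.1, 26.2 and 17.7 in CM (-2.12 ± 0.17, edgeR adjusted p = 1.6e-07). Ruxolitinib lowered it in DMEM, to 23.69, 22.04 and 25.32 (-2.02 ± 0.16, edgeR adjusted p = 8.5e-06), and in CM, to 10.2, 11.8 and 10.7 (-1.02 ± 0.16, edgeR adjusted p = 0.0018). H2-Q7 showed the largest rise, from 5.38 and 5.24 to 15.19, 13.34 and 13.03 (1.38 ± 0.11, edgeR adjusted p = 2.6e-07). It is nearly identical to other H2-Q genes, and fragments that align to several genes were not counted, so its count is uncertain. Mr1, which presents vitamin metabolites, was the heavy chain called higher with IKK-16, beside 4.07% of all genes, from 9.04, 12.9 and 10.4 to 16.5, 19.5 and 17.7 (0.73 ± 0.18, edgeR adjusted p = 0.015), with an adjusted p of 0.067 without CM + Rux replicate 1.

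**Figure D4:**
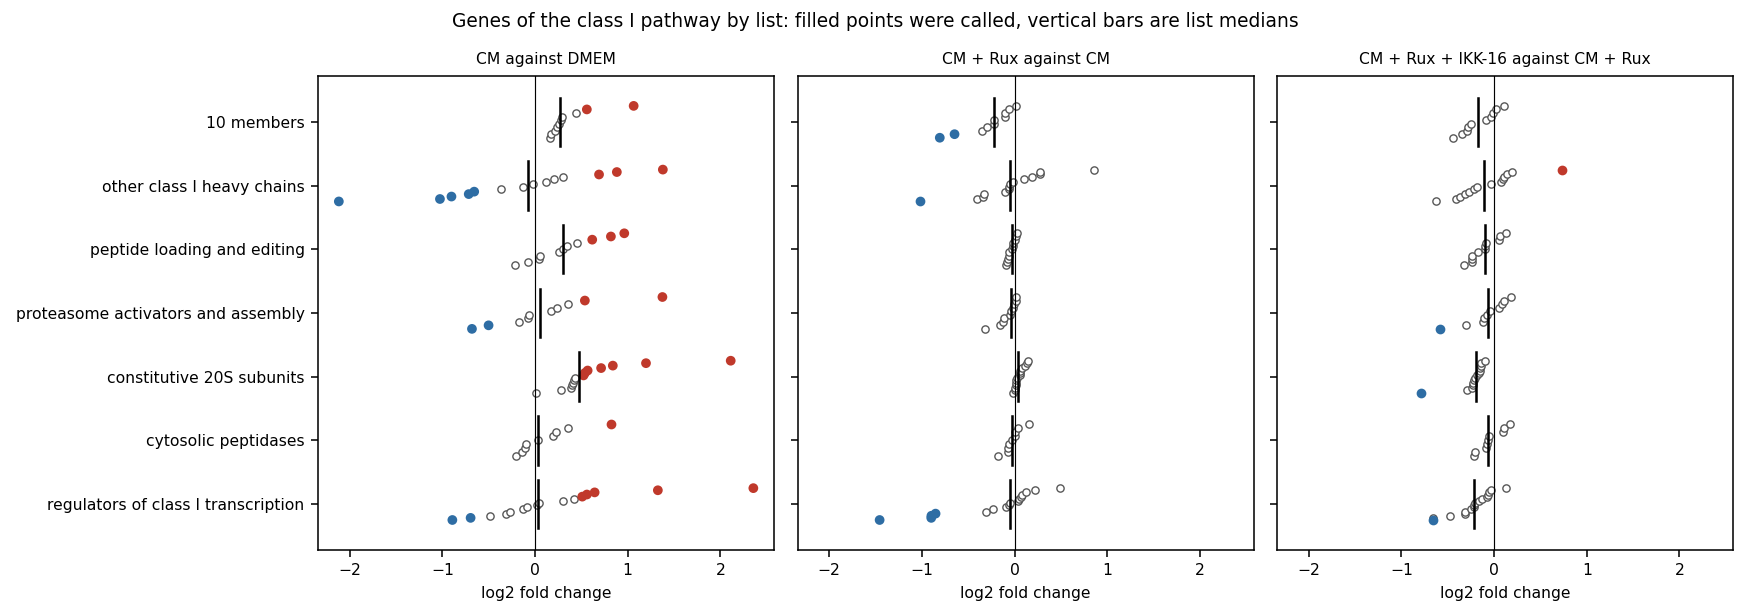
log2 fold change (horizontal axes) of each tested gene of the 10 members and 6 pathway lists in the 3 main comparisons; filled points were called (red higher, blue lower) and vertical bars are list medians. Under the relative log expression scaling, the constitutive 20S subunits are shifted to the right in CM, a shift that depends in part on this scaling. Rux called 4 regulators and 1 other heavy chain lower beside Tap1 and Nlrc5.

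By the root-mean-square difference of centred log2 CPM over the 6 group means, the genes outside the 10 with the profile most like their mean were Usp25 (0.046), Psme1 (0.055), Azi2 (0.067), Bdp1 (0.074) and Ralb (0.075). The 10 themselves differed from that mean by 0.063 (Tapbp) to 0.311 (Tap2). Among the genes most like Nlrc5 were Etnk1 (0.113), Hipk2 (0.130), Trim56 (0.132) and Ust (0.140), and the nearest of the other 9 members was Psmb9 (0.238).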

How the data were processed

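Total RNA of 16 samples of mouse BMDMs was sequenced as stranded libraries. The authors trimmed reads with Trimmomatic 0.33, aligned them to GRCm38 with HISAT2 2.1.0 and counted fragments per gene with featureCounts 1.6.2, with a mapping quality of at least 10, the strand taken into account and multi-mapping fragments left out. The deposited table holds raw counts of 55487 Ensembl genes, from 18449388 to 46215853 per sample. Samples were grouped by their labels.

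Symbols came from the GENCODE M21 annotation of GRCm38 (55141 identifiers matched and 346, with at most 0.0459% of a sample's counts, did not); the authors' Ensembl 100 annotation was not used here. The quasi-likelihood test came from edgeR 4.0.16 (limma 3.58.1, R 4.3.3), with 1 model for the 6 groups. RLE scaling, the filter of 1 CPM in at least 2 samples and the thresholds followed the study's methods. The routine was tested on simulated counts. Ratios used exact permutation tests in Python 3.11.15.

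The members and lists were chosen with earlier results of these data known. Named were all members, the genes that replace or partner them, per comparison and list the largest called rise and fall, and the 5 genes nearest in profile to the members' mean and to Nlrc5 at 10 CPM or more. Genes of a count of 5 or fewer were also named, after their values were seen. Some genes that these rules name are not reported here. The ratios of Tap1 to Tap2, of the heavy chains to B2m and of Psme2 to Psme1 were added after the data were seen. Replicates of a group differed by more than sampling noise (14.2 to 54.4 for chi-square over its degrees of freedom). Same-numbered samples deviated together in each comparison, with correlations of 0.16 to 0.76 over genes. The numbers were therefore taken to pair the samples, as a pairing read from the data. The paired fit used the replicate number as a block. Calls and shares come from the fit without the block, which ignores this pairing, so that a gene not called there may pass with it. Alternatives were TMM, total counts alone, no filter, filterByExpr, the replicate block, the likelihood ratio test, DESeq2 1.42.0, a fit of the compared groups only, no fold threshold and leaving out each replicate.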

Additional observations from a re-analysis of the deposited data

Results flagged for a closer look

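The effect of ruxolitinib on Irf8, a regulator of macrophage and dendritic cell genes from the list of class I regulators, differed between the media by the interaction test (log2 difference -0.97, SE 0.14, edgeR adjusted p = 0.012). It was at 187 and 195 normalized CPM in DMEM and at 204, 197 and 204 in DMEM + Rux, which is no fall, and at 267, 297 and 282 in CM against 137, 143 and 174 in CM + Rux (-0.90 ± 0.10, edgeR adjusted p = 1.2e-04). Every sample of CM + Rux was below every DMEM sample. The interaction had an adjusted p of 0.0011 with the replicate block and of 0.069, no call, without DMEM replicate 1.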

How the results depend on the processing

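Total counts alone moved most: H2-K1 -0.14, H2-D1 -0.10, B2m -0.15, Tapbp -0.024, Psmb9 -0.082, Psmb10 -0.031 and Nlrc5 -0.052 in CM against DMEM turned below 0. In CM + Rux against DMEM + Rux, H2-D1 (-0.14), Psmb9 (-0.063) and Nlrc5 (-0.093) did so too, as did H2-K1 and B2m. Under it the members called were 1 instead of 2 in CM against DMEM, 1 instead of 3 in CM + Rux against DMEM + Rux and 2 instead of 5 in CM + Rux + IKK-16 against CM. With no fold threshold the counts were 6 higher in CM against DMEM, 5 higher in CM + Rux against DMEM + Rux, 3 lower with IKK-16 and 2 higher in the 2 h samples. A fit of only the groups compared called 0 in DMEM + Rux against DMEM. Leaving out 1 replicate gave 0 to 2 members called lower in DMEM + Rux against DMEM and 0 to 1 with IKK-16. It gave log2 ratio differences of -0.088 to 0.019 (Psmb8 to Psmb5, IKK-16), -0.17 to 0.0052 (Psmb9 to Psmb6, IKK-16) and -0.22 to 0.031 (Psmb10 to Psmb7, CM + Rux against CM). The replicate block, which pairs same-numbered samples, left the count of members called at 2 in CM against DMEM and at 2 in CM + Rux against CM, and changed no other call of a member; it did move members across the adjusted p alone. For the changes listed here the cause was not tested. Single values under 0.15 in size were not followed one by one through the alternatives, apart from their sign under total counts alone. With 2 or 3 samples a group, ratios cannot pass a permutation test.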

Other observations

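The 64 tested genes that are no members and lie between Tapbp and H2-D1 on chromosome 17 (chr17:33915899-35267499) were compared as neighbours of the members. In CM + Rux against CM, 1 of them was called higher and 0 lower, beside 149 higher and 263 lower (2.13%) of the 12372 genes tested. In DMEM + Rux against DMEM 0 were called, beside 0 higher and 120 lower (0.97%) of all genes. At such low shares, 64 genes are too few to set 0 calls apart from all genes. The medians were 0.00 and -0.04. In CM against DMEM, 13 (20.3%) were higher and 7 (10.9%) lower by the same rule (median 0.18), beside 20.9% and 24.1% of all genes tested.

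The CM + Rux 2 h samples were also compared with CM + Rux in the other class I genes. Of the 14 other heavy chains tested, 7 rose by the call, beside 12.6% of all genes, and 0 fell, and the median log2 fold change was 0.50, against -0.03 over all genes tested. H2-T24 rose to 48.6 and 43.5 normalized CPM (2.08 ± 0.17, edgeR adjusted p = 1.2e-06). Irf1 rose in the same samples to 122 and 257 (1.42 ± 0.24, edgeR adjusted p = 4.3e-04), values that differed from each other by more than those of any other group. Without 2 h replicate 3 the Irf1 value was 0.79 (adjusted p = 0.011) and without 2 h replicate 2 it was 1.86. Psmb5 fell by 0.59 on the log2 scale (SE 0.10, edgeR adjusted p = 6.4e-04), or by 0.44, without a call, when 2 h replicate 3 was left out. Psma6 (-0.68), Npepps (-0.62) and Rfxank (-1.03) were the lowest called genes of their lists and Psmg4 (0.62) the highest of its list, the last of these with an adjusted p of 0.061 in a fit of both groups alone, of 0.052 and 0.062 without either 2 h replicate, and a log2 fold change of 0.45 without CM + Rux replicate 2. B cell markers summed to 55.7 to 71.4 CPM in the 2 h samples and 12.2 to 15.5 in CM + Rux, and their part in these differences was not tested.

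In CM + Rux against DMEM + Rux, H2-M2, a non-classical heavy chain, showed the largest rise of its list (2.33 ± 0.53, edgeR adjusted p = 0.0014) at a low level, from 0.185, 0.625 and 0.518 normalized CPM to 2.023, 2.277 and 3.003.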
